A study of Mus musculus with 6 samples.

Results

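Transcripts of 45 TGF-beta and BMP pathway genes were followed in LSK cells of bone marrow, which lack mature lineage markers and carry Sca-1 and Kit and so include blood stem cells and multipotent progenitors. The 45 genes were taken by name: 11 ligands, 5 latent binding proteins and extracellular regulators, 12 receptors, 8 Smads, 5 Smad regulators and 4 Id genes. They were chosen with earlier results of these data known. All 45 were measured, out of 22180 genes with a probe of 1 gene symbol on the array. The 6 samples were 3 of YFP-positive and 3 of YFP-negative LSK cells, all from C57Bl6 mice that carried Tg(Cdh5-Cre/ERT2), a tamoxifen-dependent Cre driven by the promoter of the endothelial cadherin gene Cdh5, together with a Rosa 26 YFP reporter. Both populations came from mice induced with tamoxifen on postnatal days 1, 2 and 3 and were sorted at postnatal day 27, so that a YFP-positive cell is one in which, or in a forebear of which, Cre had been active. The labels do not say whether replicates came from separate animals or from pools, so p-values cover only the spread among these samples, part of which may be technical.

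Ligands of this family are secreted, many of them in a latent form held by binding proteins, and join type I and type II receptor kinases on the cell surface, often with the help of a co-receptor. The receptors phosphorylate receptor Smads, of which Smad2 and Smad3 serve the TGF-beta and activin branch and Smad1, Smad5 and Smad9 the BMP branch. These enter the nucleus with Smad4, and the Id genes, which encode helix-loop-helix proteins without a DNA-binding domain, are well-known targets of the BMP branch. In endothelium the type I receptor Acvrl1, the type II receptor Bmpr2 and the co-receptor Eng form the receptor of the circulating ligand Gdf2, and in blood stem cells TGF-beta is known as a signal that favours quiescence.

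The genes of the pathway that rose in YFP-positive LSK cells were mainly receptors, together with 1 Id gene and 1 ligand gene. None of the 8 Smads passed the test, but only 4.84% of all genes did, so this count does not set the Smads apart. It does not show them to be unchanged either. The confidence interval of the difference stayed within 1 log2 unit of 0 in only 4 of the 8. With limma and Benjamini-Hochberg adjustment over all genes at 0.05, 7 of the 45 genes (15.6%) were higher in YFP-positive cells, against 2.88% of all genes, and 1 (2.22%) was lower, against 1.96% of all genes. Among genes above the median level, 6 of 33 (18.2%) were higher, against 701 of all 11090 such genes (6.32%). The 7 were the receptors Eng, Tgfbr3, Bmpr2, Acvrl1 and Tgfbr2, the target Id3 and the ligand subunit Inhbb, and the gene that was lower was Tgif1. The median difference (log2, YFP-positive minus YFP-negative) was 0.31 over the 45 genes and -0.01 over all genes. In 15 of the 45 genes (33.3%) all 3 YFP-positive arrays lay above all 3 YFP-negative arrays, against 10.8% of all genes, and in 1 gene all lay below, against 11.9% of all genes. Because the 45 genes were chosen with earlier results of these data known, these shares describe the list and do not test it. By step, the median difference was 1.80 for the Id genes, 0.80 for the receptors, 0.46 for the Smad regulators, 0.22 for the Smads, 0.17 for the ligands and 0.07 for the latent binding proteins and extracellular regulators.

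**Figure D1:**
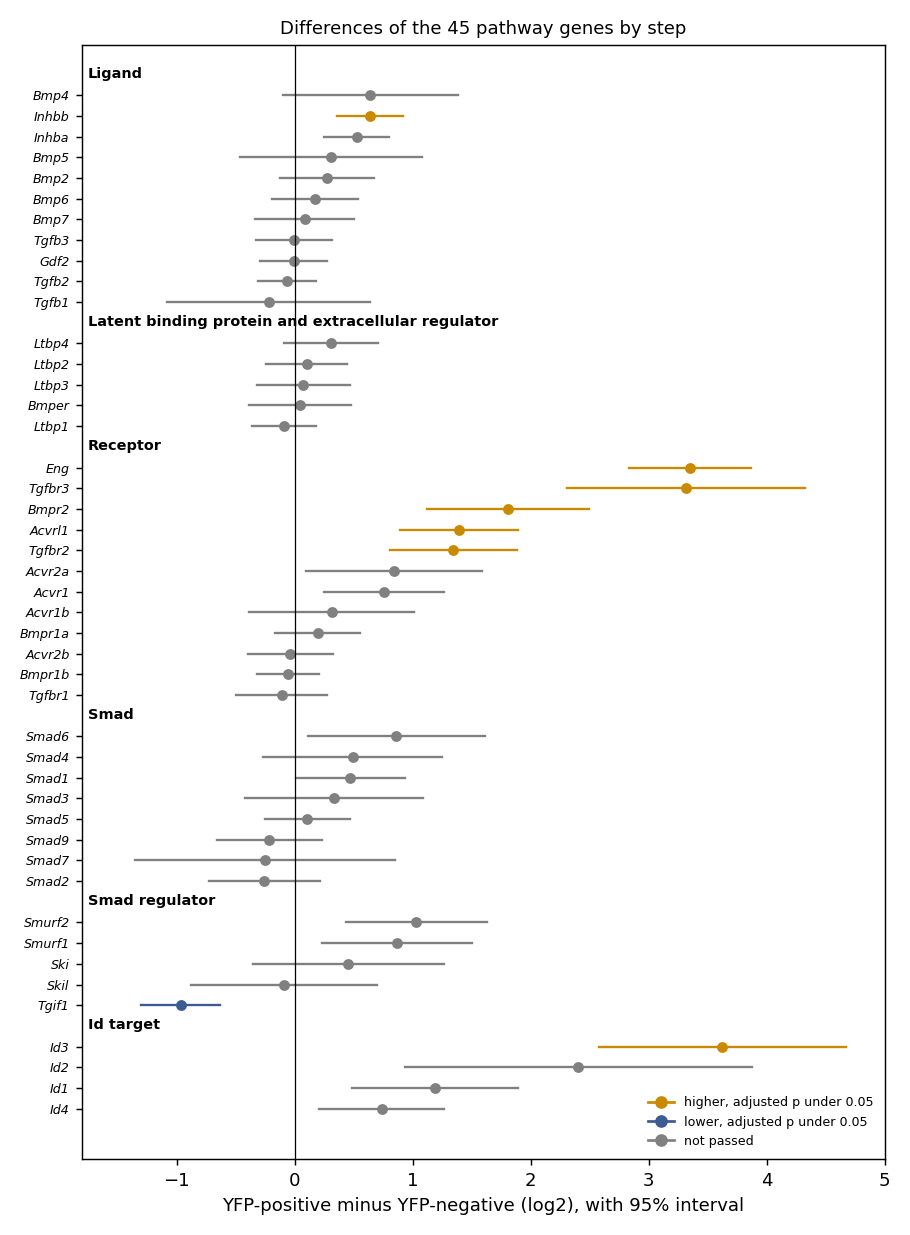
Difference (log2, YFP-positive minus YFP-negative) of each of the 45 genes, by step (points, with 95% interval as lines; 3 arrays per population). The 5 receptors, Id3 and Inhbb past the threshold have intervals entirely above 0, and Tgif1 has one entirely below 0. The intervals are not adjusted over genes. Those of Inhba, Acvr1, Acvr2a, Smad1, Smad6, Smurf1, Smurf2, Id1, Id2 and Id4, which did not pass, also lie entirely above 0.

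The populations differed widely in markers of cell type, and these values stand beside every result below. Of 27 measured endothelial genes, 22 (81.5%) were higher in YFP-positive cells and 0 lower, against 2.88% and 1.96% of all genes. The mean level of the list ran from 8.02 to 8.58 on YFP-positive and from 4.54 to 4.89 on YFP-negative arrays (log2). Cdh5, the gene of the Cre driver, measured 131-fold higher in YFP-positive cells (adjusted p = 0.00086, limma). Of 25 genes broadly expressed in leukocytes, 4 (16%) were lower in YFP-positive cells and 0 higher, against 1.96% and 2.88% of all genes. The difference was below 0 in 24 and above 0 in 1, with a median of -1.56. In 8 every YFP-positive array lay below every YFP-negative one, against 11.9% of all genes. The mean level of this list on the YFP-positive arrays was 5.74 in replicate 1, 5.92 in replicate 2 and 7.69 in replicate 3. The YFP-negative arrays gave 7.88 to 7.98, so replicate 3 stood apart from the other YFP-positive arrays. Of 14 measured genes of the LSK gate and of stem cells, 10 (71.4%) were lower in YFP-positive cells and none higher, against 1.96% and 2.88% of all genes. Kit, which defines the gate, measured 6.86 ± 0.27 in YFP-positive cells, 1.86-fold lower than in YFP-negative cells with 7.76 ± 0.20 (SD, n = 3 each; adjusted p = 0.0496, limma), a call lost whenever any 1 array was dropped. No value is given here for Ly6a, which encodes Sca-1, and 2 of the 16 genes listed for the LSK gate and stem cells were not measured. Ptprc, which encodes the leukocyte protein CD45, measured 7.66 ± 1.62 on YFP-positive and 9.31 ± 0.07 on YFP-negative arrays and did not pass (adjusted p = 0.353), though it passed without YFP-positive replicate 3 (adjusted p = 0.00256). Of 15 genes of mesenchymal stroma, limma called 0 higher and 1, Thy1, lower, 6 had an unadjusted p under 0.05, and the unmoderated model called 0. In 4 of them (26.7%) every YFP-positive array lay above every YFP-negative one, against 10.8% of all genes. In 2 every YFP-positive array lay below, against 11.9% of all genes. For this and the lists below, 17.2% of all genes had an unadjusted p under 0.05. Of 13 macrophage genes, 2 were higher, Vcam1 and Mertk, which are named after their values were seen and of which Vcam1 is also carried by endothelium. The limma test called 0 of 10 megakaryocyte and platelet genes (1 had an unadjusted p under 0.05) and 0 of 14 neutrophil genes (2 had one), and the unmoderated model 0 of either. Neutrophil genes averaged 7.78 to 9.48 on YFP-positive and 7.14 to 9.38 on YFP-negative arrays, with replicate 3 the highest in both populations. How far the share of endothelial, blood or neutrophil cells in each sort moved the pathway genes was not tested, and in such samples fewer cells of a type and less RNA per cell cannot be told apart.

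**Figure D2:**
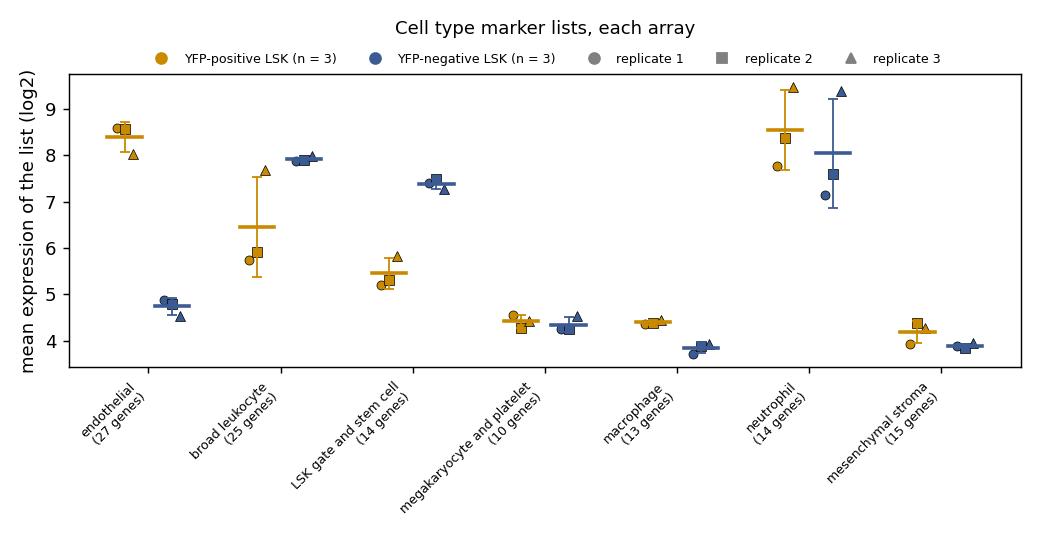
Mean expression (log2) of 7 lists of cell type markers on each array (points; bars are means with SD, n = 3 arrays per population; YFP-positive left). The endothelial list is higher on all YFP-positive arrays, and YFP-positive replicate 3 has a leukocyte level of 7.69, near the YFP-negative arrays.

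Among the receptors, 5 of 12 (41.7%) were higher in YFP-positive cells, none was lower, and 7 did not pass. Of all genes, 2.88% were higher and 1.96% lower. The 5 receptors were both type III co-receptors, 1 of the type I and 2 of the type II receptors in the list. Eng, the co-receptor endoglin of endothelium, measured 10.07, 10.17 and 10.15 in the YFP-positive replicates, against 7.20, 6.74 and 6.39 in the YFP-negative ones. The YFP-positive arrays lay within 0.1 of each other, and the YFP-negative arrays spread over a wider range well below them. The difference was 3.35 ± 0.21 (SE), or 10.2-fold (adjusted p = 0.00101, limma), and the call held whichever array was dropped (adjusted p at most 0.00963). Tgfbr3, the co-receptor betaglycan, which presents TGF-beta to its signalling receptors, measured 8.59, 8.56 and 7.67 in YFP-positive cells and 4.79, 5.71 and 4.36 in YFP-negative cells. The groups were far apart, with YFP-positive replicate 3 the lowest of its group. The difference was 3.32 ± 0.41 (9.97-fold, adjusted p = 0.0121), and it missed the threshold without YFP-negative replicate 1 (adjusted p = 0.055).

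Bmpr2, the type II receptor of BMPs, measured 9.30, 9.72 and 9.03 in YFP-positive cells, against 7.20, 8.06 and 7.37 in YFP-negative cells. The groups did not overlap, and the difference was 1.81 ± 0.28 (3.51-fold, adjusted p = 0.0225). A further probe, whose annotation joins Bmpr2 with the gene Gm20272 and which was therefore not used, measured 11.71, 12.06 and 11.21 in YFP-positive cells and 10.99, 11.38 and 11.12 in YFP-negative cells. Its groups overlapped and its difference was 0.50, smaller than that of the probe of Bmpr2 alone. Tgfbr2, the type II receptor that binds TGF-beta, measured 6.28, 6.98 and 6.78 in YFP-positive cells and 5.61, 5.18 and 5.22 in YFP-negative cells. All YFP-positive arrays were above all YFP-negative ones, with a difference of 1.35 ± 0.22 (2.54-fold, adjusted p = 0.0274). Acvrl1, known as ALK1, the endothelial type I receptor, measured 5.87, 5.50 and 5.15 in YFP-positive cells, against 4.03, 4.00 and 4.31 in YFP-negative cells. Here too the groups were separate, and the difference was 1.40 ± 0.21 (2.63-fold, adjusted p = 0.0196). These calls rest on few arrays. With any 1 array dropped in turn, which gives 6 fits, Bmpr2 missed the threshold in 4 (adjusted p up to 0.0806), Tgfbr2 in 5 (up to 0.103) and Acvrl1 in 3 (up to 0.0806). Their differences stayed between 1.62 and 2.07, 1.19 and 1.55, and 1.22 and 1.57 over those fits.

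The other type I and type II receptors gave smaller differences. Tgfbr1, the type I receptor that pairs with Tgfbr2, measured 4.75, 4.90 and 4.70 in YFP-positive cells and 4.68, 4.81 and 5.18 in YFP-negative cells. The groups overlapped, with a difference of -0.11 and a 95% interval from -0.49 to 0.28 (adjusted p = 0.817). Acvr1, known as ALK2, a type I receptor of BMPs and activins, measured 4.87, 4.42 and 4.46 in YFP-positive cells, against 4.19, 3.59 and 3.71 in YFP-negative cells. Its groups did not overlap, yet the difference of 0.76 ± 0.21 did not pass (adjusted p = 0.121). Bmpr1a, the main type I receptor of Bmp2 and Bmp4, measured 3.06, 3.36 and 3.44 in YFP-positive cells and 3.04, 2.97 and 3.26 in YFP-negative cells. All 6 values were below the medians of the arrays, which lay between 3.62 and 3.68 over all probes, so this gene cannot be told from background. Acvr2a, a type II receptor of activins, measured 6.30, 6.30 and 5.29 in YFP-positive cells and 5.15, 5.34 and 4.89 in YFP-negative cells. YFP-positive replicate 3 fell within the YFP-negative range, and Acvr2a passed without that array (adjusted p = 0.0239; up to 0.466 when another array was dropped). Acvr1b, Acvr2b and Bmpr1b had differences of 0.32, -0.04 and -0.06 and did not pass (adjusted p = 0.68, 0.943 and 0.863).

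**Figure D3:**
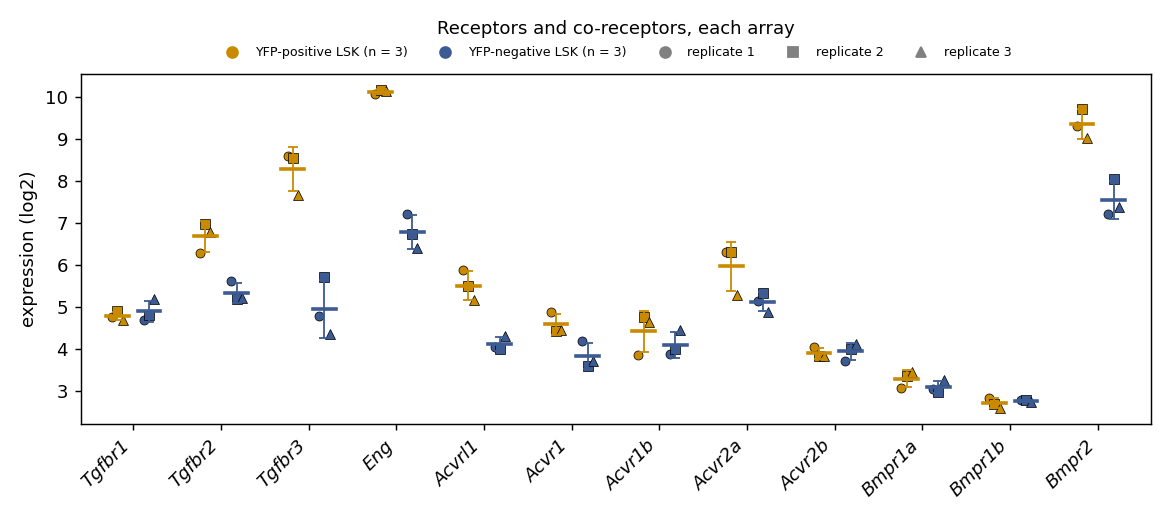
Expression (log2) of the 12 receptors and co-receptors on each array (points; bars are means with SD, n = 3 arrays per population; YFP-positive left). Eng, Tgfbr3 and Bmpr2 have the widest gaps between the populations, and Tgfbr1 overlaps.

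Windows around the annotated starts of 3 of the 5 receptors that rose, and of Id3, are shown because the comparison turns on these genes. Tgfbr3 and Acvrl1 are named only. They were taken from RefSeq's GRCm38.p6 annotation, from 250 bases before to 50 after the start, and were found for 6 of the 8 genes past the threshold and 35 of the 45 genes in all. Capitals mark CAGAC and its reverse complement GTCTG, the core bound by Smad3 and Smad4, and GGCGCC, a GC-rich element known from BMP-responsive genes.
Eng, chr2:32646345-32646644, plus strand: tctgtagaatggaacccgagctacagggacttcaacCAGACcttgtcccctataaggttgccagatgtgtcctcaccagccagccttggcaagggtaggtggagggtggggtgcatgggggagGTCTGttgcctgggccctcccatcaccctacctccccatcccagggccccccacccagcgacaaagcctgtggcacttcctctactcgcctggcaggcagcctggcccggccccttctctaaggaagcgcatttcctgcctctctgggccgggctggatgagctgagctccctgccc
Tgfbr2, chr9:116175314-116175613, minus strand: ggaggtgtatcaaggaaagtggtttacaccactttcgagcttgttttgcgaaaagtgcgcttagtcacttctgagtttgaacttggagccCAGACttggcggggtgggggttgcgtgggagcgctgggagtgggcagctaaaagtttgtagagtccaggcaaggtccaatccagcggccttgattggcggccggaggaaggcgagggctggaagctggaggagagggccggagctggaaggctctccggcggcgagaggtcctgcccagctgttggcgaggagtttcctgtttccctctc
Bmpr2, chr1:59764029-59764328, plus strand: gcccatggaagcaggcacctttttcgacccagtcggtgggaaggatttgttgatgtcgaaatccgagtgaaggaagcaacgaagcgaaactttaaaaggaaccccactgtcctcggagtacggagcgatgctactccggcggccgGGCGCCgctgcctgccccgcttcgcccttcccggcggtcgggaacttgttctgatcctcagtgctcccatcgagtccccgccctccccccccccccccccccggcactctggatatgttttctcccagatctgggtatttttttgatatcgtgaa
Id3, chr4:136143572-136143871, plus strand: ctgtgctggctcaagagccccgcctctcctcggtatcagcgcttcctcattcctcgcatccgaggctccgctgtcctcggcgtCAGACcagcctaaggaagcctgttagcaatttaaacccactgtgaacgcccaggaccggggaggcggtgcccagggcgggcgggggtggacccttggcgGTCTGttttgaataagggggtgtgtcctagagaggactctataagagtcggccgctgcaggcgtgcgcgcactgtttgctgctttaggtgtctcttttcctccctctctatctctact
CAGAC occurred, on either strand, 2 times in the windows of Eng and of Id3, 1 time in that of Tgfbr2 and 0 times in that of Bmpr2, and 49.6% of 32851 such windows of all genes hold it. GGCGCC, which reads the same on both strands, occurred 1 time in the window of Bmpr2 and in none of the other windows printed, against 11.9% of all windows. GGAA, the core of sites bound by ETS factors, or its reverse complement TTCC, occurred 4 times in the windows of Eng and Id3 and 6 times in those of Tgfbr2 and Bmpr2, and 96.0% of all windows hold it. None of these matches overlaps a match of another of the motifs, and a match in letters is a description, not a bound site.

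Among the Id genes, Id3 was 12.3-fold higher in YFP-positive cells and the other 3 did not pass. All 4 lay higher on every YFP-positive array than on any YFP-negative array, as did 10.8% of all genes. Id proteins bind E proteins and keep them from DNA. Id3 measured 8.43, 6.87 and 7.59 in YFP-positive cells, against 4.44, 3.56 and 4.02 in YFP-negative cells. The difference was 3.62 ± 0.43 (adjusted p = 0.01, limma), and the call held with any 1 array dropped (adjusted p up to 0.0445). The YFP-negative levels were close to the array medians, so the fold may understate the change. Id2, which is also a regulator of lymphoid and myeloid development, measured 8.62, 9.59 and 8.70 in YFP-positive cells and 7.10, 5.23 and 7.37 in YFP-negative cells. YFP-negative replicate 2 was far below the other arrays of its group, and the difference of 2.40 ± 0.60 did not pass (5.29-fold, adjusted p = 0.0947). Id1, a target of Acvrl1 signalling in endothelium, measured 6.49, 6.10 and 5.79 in YFP-positive cells and 5.22, 4.39 and 5.20 in YFP-negative cells. The groups did not overlap, but the difference of 1.19 ± 0.29 missed the threshold (2.28-fold, adjusted p = 0.0856). Id4 had a difference of 0.74 ± 0.22 (adjusted p = 0.143) and passed without YFP-positive replicate 3 (adjusted p = 0.0213; up to 0.331 when another array was dropped).

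None of the 8 Smads passed the limma test. An unadjusted p under 0.05 was reached by 2 of them, Smad1 and Smad6, while 17.2% of all genes reached it, and the unmoderated model called 0 Smads. Of the BMP branch, Smad1 measured 6.58, 5.97 and 5.99 in YFP-positive cells, against 5.65, 5.81 and 5.67 in YFP-negative cells. All YFP-positive arrays were above all YFP-negative ones by a narrow margin, with a difference of 0.47 ± 0.19 (adjusted p = 0.279). Smad5 measured 6.23, 6.0 and 5.83 in YFP-positive cells and 6.07, 5.82 and 5.84 in YFP-negative cells. The groups overlapped, and the 95% interval of the difference ran from -0.25 to 0.47. Smad9 had levels of 3.07 to 3.28 on YFP-positive arrays and 3.10 to 3.72 on YFP-negative ones, too low to be told from background on most arrays.

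Of the TGF-beta branch, Smad2 measured 6.45, 6.21 and 6.88 in YFP-positive cells and 6.77, 6.91 and 6.64 in YFP-negative cells. Smad3 measured 5.21, 4.17 and 4.84 in YFP-positive cells and 4.53, 4.68 and 4.01 in YFP-negative cells. In both genes the groups overlapped, with differences of -0.26 ± 0.19 and 0.33 ± 0.31 (adjusted p = 0.604 and 0.686). Smad4, the common partner of both branches, measured 7.12, 7.97 and 7.16 in YFP-positive cells, against 7.33, 6.95 and 6.49 in YFP-negative cells, and the groups overlapped as well (adjusted p = 0.522).

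The inhibitory Smads are induced by the pathway and act back on its receptors. Smad6, which restrains mainly the BMP branch, measured 5.34, 4.28 and 5.29 in YFP-positive cells and 3.94, 4.36 and 4.02 in YFP-negative cells. YFP-positive replicate 2 lay within the YFP-negative range, and the difference of 0.86 ± 0.31 passed only without that array (adjusted p = 0.0387, against 0.224 with all arrays). Smad7, which restrains both branches, measured 7.26, 6.69 and 7.53 in YFP-positive cells and 8.32, 6.64 and 7.28 in YFP-negative cells. The YFP-negative arrays alone spanned more than the YFP-positive ones, and the difference of -0.25 ± 0.45 had a 95% interval from -1.35 to 0.85, so a 2-fold fall of this gene is not bounded by these arrays.

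**Figure D4:**
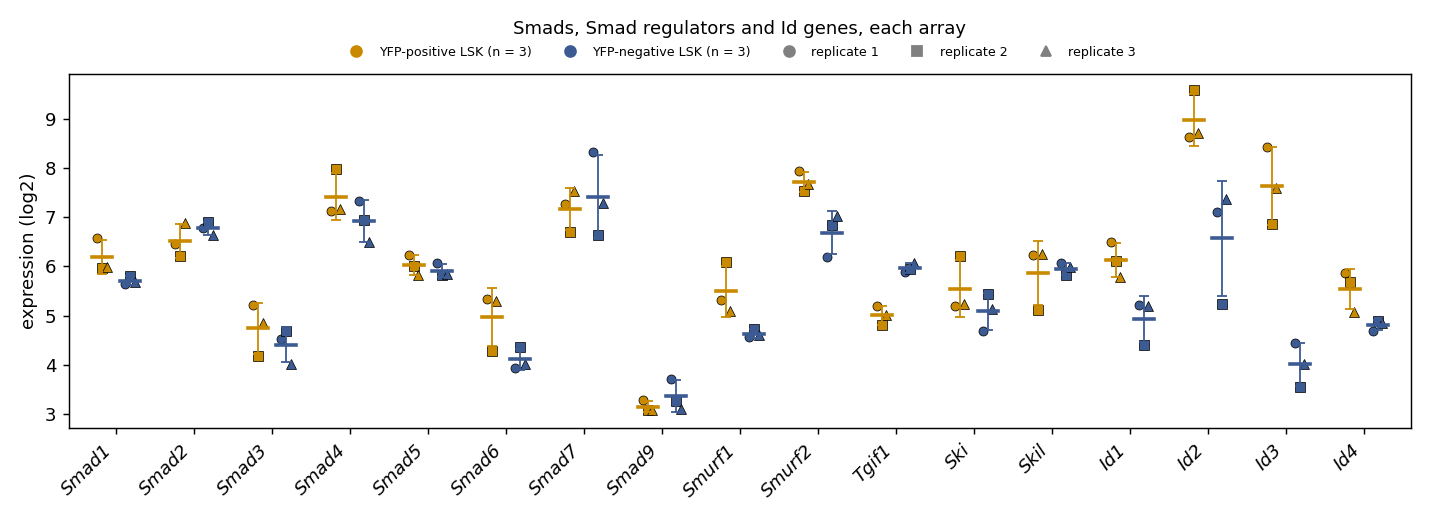
Expression (log2) of the 8 Smads, 5 Smad regulators and 4 Id genes on each array (points; bars are means with SD, n = 3 arrays per population; YFP-positive left). The Id genes, Tgif1, Smad1, Smurf1 and Smurf2 separate the populations without overlap, Tgif1 lower and the others higher in YFP-positive cells. Most Smads overlap.

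Of the 5 Smad regulators, 1 was lower in YFP-positive cells and 0 were higher, against 1.96% and 2.88% of all genes. Tgif1, a homeodomain repressor that binds Smad complexes, measured 5.20, 4.81 and 5.0 in YFP-positive cells, against 5.88, 5.95 and 6.08 in YFP-negative cells. It was the only one of the 45 genes with every YFP-positive array below every YFP-negative array. The difference was -0.96 ± 0.14, or 1.95-fold lower (adjusted p = 0.0182, limma), and the call was lost without each of the YFP-negative arrays (highest adjusted p = 0.0703). The ubiquitin ligases Smurf1 and Smurf2, which mark Smads and receptors for degradation, lay higher on all YFP-positive arrays, by 0.86 ± 0.26 and 1.03 ± 0.25, and did not pass (adjusted p = 0.152 and 0.0812). Ski and Skil, co-repressors that bind Smad complexes, overlapped between the groups, with differences of 0.46 and -0.09 (adjusted p = 0.596 and 0.937).

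Of the 11 ligands, 1 (9.09%) passed the test, against 4.84% of all genes. Inhbb, the beta B subunit of activins and inhibins, measured 4.68, 4.56 and 4.78 in YFP-positive cells, against 4.14, 4.03 and 3.94 in YFP-negative cells. The groups were separate but the levels low, and the difference of 0.64 ± 0.11 (1.56-fold, adjusted p = 0.0365, limma) missed the threshold whichever array was dropped (adjusted p up to 0.12). Inhba, the beta A subunit, measured 3.18 to 3.42 on YFP-positive arrays and 2.70 to 2.86 on YFP-negative ones, below the array medians on every array, and did not pass (adjusted p = 0.0616). Tgfb1, which blood cells and platelets make, measured 8.42, 8.22 and 8.93 in YFP-positive cells and 8.81, 9.34 and 8.09 in YFP-negative cells. Its groups overlapped fully and the difference was -0.22 with a 95% interval from -1.08 to 0.64 (adjusted p = 0.837). Bmp4, a ligand needed for the embryonic origin of blood, measured 5.04, 4.21 and 3.92 in YFP-positive cells and 3.92, 3.50 and 3.81 in YFP-negative cells, and the difference of 0.64 ± 0.30 did not pass (adjusted p = 0.362). Bmp6, a ligand of liver sinusoidal endothelium, measured 3.50, 3.26 and 3.01 in YFP-positive cells, against 3.11, 3.11 and 3.04 in YFP-negative cells, all below the array medians. Tgfb2, Tgfb3, Bmp2, Bmp5, Bmp7 and Gdf2 had differences between -0.07 and 0.31, with adjusted p from 0.498 to 0.991. Tgfb2 and Tgfb3 were below the array medians on every array, so their levels cannot be told from background.

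The latent binding proteins Ltbp1, Ltbp2, Ltbp3 and Ltbp4, which hold TGF-beta in the matrix, and Bmper, a BMP-binding protein of endothelium, did not pass the limma test. At an unadjusted p under 0.05 there were 0 of them, and the unmoderated model called 0. Their differences ran from -0.09 to 0.31. Ltbp1 and Bmper lay below the array medians on every array and cannot be told from background. Of the 37 pathway genes that did not pass, 27 had a mean level above the array medians, and in 12 of these the 95% interval of the difference was within -1 and 1.

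The wider pathway was read from 103 further genes, of which 94 were measured. They too were chosen with earlier results of these data known. In YFP-positive cells 11 (11.7%) were higher and none lower, where 2.88% of all genes were higher, and their median difference was 0.07. Of the 13 measured target genes outside the Id family, 5 (38.5%) were higher, against 2.88% of all genes, and 8 did not pass. These 8 were Bhlhe40, Atoh8, Klf10, Cdkn2b, Tmem100, Cdkn1a, Hey2 and Tsc22d1. In that order their differences were 1.48, 0.42, 0.21, 0.13, 0.04, -0.05, -0.15 and -0.40 (lowest adjusted p = 0.167, limma). Ccn1 and Ccn2, secreted matricellular proteins that TGF-beta induces, were 15.2-fold (adjusted p = 0.000558) and 14.4-fold higher (adjusted p = 0.00517). With the mean of its 2 probes, Ccn2 was 5.87-fold higher (adjusted p = 0.00333). Ccn1 measured 9.41, 8.63 and 8.93 in YFP-positive cells and 5.15, 4.98 and 5.05 in YFP-negative cells. Hey1, a target shared by Notch and Acvrl1 signalling, was 2.70-fold higher (adjusted p = 0.024). Cdkn1c, a cell cycle inhibitor of quiescent stem cells, measured 6.74, 6.24 and 6.18 in YFP-positive cells, against 5.37, 4.98 and 5.43 in YFP-negative cells (2.18-fold, adjusted p = 0.0374), and missed the threshold in 5 of the 6 fits with an array dropped. Hey1 missed it in 4 of them.

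Among 11 genes of latent TGF-beta carriers and activators, 2 (18.2%) were higher, against 2.88% of all genes. Lrrc32, known as GARP, which holds latent TGF-beta on the cell surface, measured 8.04, 7.69 and 7.77 in YFP-positive cells, against 3.74, 3.64 and 3.35 in YFP-negative cells. The YFP-negative values were close to the array medians, so its difference of 4.26 ± 0.16 (19.1-fold, adjusted p = 0.000182) may understate the change. Itgav, the alpha chain of integrins that activate latent TGF-beta, was 1.75-fold higher (adjusted p = 0.0183). With the mean of its 2 probes the difference was 0.58 and did not pass (adjusted p = 0.107). The call of Itgav was also lost with the robust prior (adjusted p = 0.101) and the replicate block (adjusted p = 0.0746). The integrin beta chains in the list, Itgb6 and Itgb8, had differences of -0.02 and -0.14 and did not pass (adjusted p = 0.969 and 0.75, limma). Of 18 secreted antagonists and modulators, 3 (16.7%) were higher, against the same 2.88% of all genes. Bgn, the proteoglycan biglycan, which binds TGF-beta, measured 11.5, 11.8 and 11.3 in YFP-positive cells and 5.52, 6.64 and 4.41 in YFP-negative cells. The YFP-negative arrays were widely spread, and the difference was 6.03 ± 0.54 (65.4-fold, adjusted p = 0.00362). With the mean of its 2 probes it was 4.92, or 30.4-fold (adjusted p = 0.00053). Crim1, a membrane protein that binds BMPs, was 5.96-fold higher (adjusted p = 0.00845) and Fstl1, a follistatin-like secreted protein, 2.65-fold (adjusted p = 0.0216). With 1 array dropped, Itgav and Fstl1 each missed the threshold in 4 of the 6 fits, and Lrrc32, Bgn, Crim1, Ccn1 and Ccn2 kept theirs in all 6.

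Of 22 intracellular regulators, 1 (4.55%) passed, against 4.84% of all genes. It was Cav1, a caveolar protein that binds TGF-beta receptors (1.99-fold higher, adjusted p = 0.0282, limma). The target Tgfbi was 2.50-fold higher (adjusted p = 0.0392, limma). Cav1 and Tgfbi are named here after their values were seen, and they missed the threshold in 5 and 6 of the fits with an array dropped. None of 21 other ligands passed, also not at an unadjusted p under 0.05 (0 genes) or in the unmoderated model (0). None of 9 other receptors and co-receptors passed either. Of these 2, Bambi and Rgmb, had an unadjusted p under 0.05, as did 17.2% of all genes, and the unmoderated model called 0. Both lay higher on every YFP-positive array than on any YFP-negative array. The difference of Bambi was 1.72 ± 0.35 (3.29-fold, adjusted p = 0.0504, limma), just short of the threshold, and that of Rgmb 0.70 ± 0.23 (adjusted p = 0.189). Beside these counts stands the endothelial list, of which 81.5% were higher in YFP-positive cells.

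**Figure D5:**
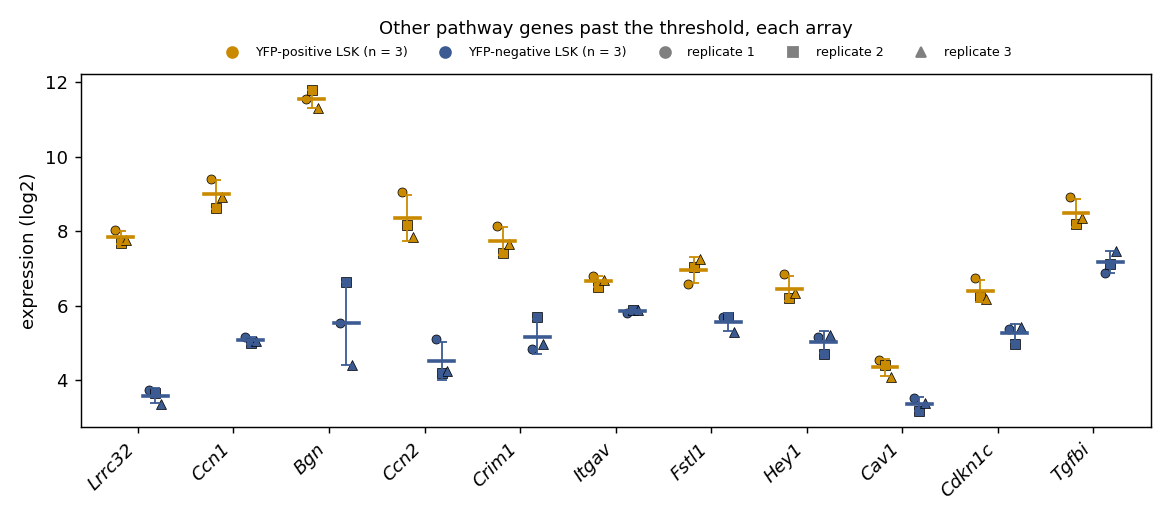
Expression (log2) on each array of the 11 further pathway genes past the threshold, ordered by p (points; bars are means with SD, n = 3 arrays per population; YFP-positive left). All 11 are higher on every YFP-positive array than on any YFP-negative array.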

How the data were processed

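Per the labels' protocols, RNA of all 6 samples was isolated at the same time, amplified and labelled with biotin for a one-colour array. The authors deposited log2 values, made with Partek per the submitters' processing notes. How background, probe sets and array scale were handled is not given in the sources used here. That the base is 2 was read from the values. No detection calls were used, and the number of arrays limits the precision.

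Of 41345 probes, 23521 had 1 gene symbol, 1814 had several and 16010 were unnamed here. Where a gene had several such probes, the one of highest mean over all 6 arrays stood for it, giving 22180 genes. Each of the 45 genes had 1 such probe. limma 3.58.1 (R 4.3.3; lmFit and eBayes, population as the only term) was fitted to all genes, two-sided, with Benjamini-Hochberg adjustment at 0.05. Differences are YFP-positive minus YFP-negative (log2), and the model was tested on simulated data. The alternatives were the mean of probes, a filter on low values, quantile normalization, an unmoderated model, a robust trended variance prior, array weights, a replicate block and leaving out each array.

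The 45 genes and all lists were chosen with earlier results of these data known. Values per array are given for genes past the threshold and for a fixed set of receptors, Smads, Id genes and ligands. Of the further pathway genes, up to 8 of smallest p and Cdkn1c were named by rule. The target genes that did not pass, and Bambi, Rgmb, Itgb6 and Itgb8, were named after their values were seen.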

Additional observations from a re-analysis of the deposited data

How the results depend on the processing

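The count of the 45 genes past the threshold was 8 (7 higher, 1 lower). It was 1 with the unmoderated model, which kept Eng, and 4 with the replicate block, and it ran from 2 to 8 when 1 array was left out. The lowest of these was without YFP-negative replicate 1. Leaving out YFP-positive replicate 1 gave 6, YFP-positive replicate 2 gave 5 and YFP-positive replicate 3 gave 8. It was 4 without YFP-negative replicate 2 and without YFP-negative replicate 3. Among the 94 further pathway genes the count of 11 became 2 with the unmoderated model and ran from 5 to 11 when 1 array was left out (7 without YFP-positive replicate 1 or 2, 5 without any 1 YFP-negative array). Over all genes the count of 1074 became 180 with the unmoderated model, 580 with the replicate block, and 430 to 1185 when 1 array was left out. The highest, 1185, was without YFP-positive replicate 3. The mean of probes, the filter on low values, quantile normalization, the robust trended prior and array weights kept all 3 counts within 1.5 times. The cause of these shifts was not tested. The fits that left one out also had fewer arrays. The labels give no link between equal replicate numbers. Deviations of same-numbered arrays correlated at 0.10, 0.08 and 0.17, and every array correlated best with its own number, which is a hint from the data and not a pairing by design. With the block, Tgfbr2, Acvrl1, Tgif1 and Inhbb lost their calls, and Eng, Tgfbr3, Bmpr2 and Id3 passed (adjusted p = 0.0113, 0.0115, 0.0193 and 0.00653). Of the other genes named, Fstl1, Itgav, Cav1, Tgfbi, Cdkn1c and Kit also lost theirs with the block (adjusted p = 0.0792, 0.0746, 0.0655, 0.103, 0.063 and 0.133), and the count of the 94 further genes was 8 (7 higher, 1 lower). Over 59 genes followed under 13 alternatives, 0 called genes changed sign, 91 calls were lost and 5 gained, and 11 uncalled genes changed sign in some fit. The robust trended prior gave Inhba an adjusted p of 0.0319 and took the calls of Inhbb, Tgif1, Itgav, Cdkn1c and Kit. Kit also lost its call with quantile normalization, and Inhbb with the filter on low values. Signals near the array medians limit what can be said of Tgfb2, Tgfb3, Bmpr1a, Bmpr1b, Bmp5, Bmp6, Inhba, Smad9, Bmper and the latent binding protein Ltbp1.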
